A study of Mus musculus with 11 samples.

Results

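The gene set described here holds 34 genes of glycolysis and of the transcriptional response to low oxygen. Members were matched by symbol to a list of glucose and lactate transporters, glycolytic enzymes, oxygen-sensing genes and genes known to be induced by hypoxia. The list was chosen with earlier results of these data known. All 34 symbols were present among the 32868 symbols of the count table. Of these, 29 had enough counts to be tested together with the other genes, 9932 in all, and 5 (Vegfa, Ankrd37, Aldoc, Car9 and Slc2a3) did not.

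Bulk RNA sequencing had been carried out on sorted primary lung fibroblasts of neonatal mice, either wild type (WT) or PAD2KO, a genotype named for peptidylarginine deiminase 2, an enzyme that converts arginine residues of proteins to citrulline. The 11 libraries came in 2 batches, as the labels call them, with 3 WT libraries (WT 1, WT 3 and WT 4) and 3 PAD2KO libraries (PAD2KO 1, PAD2KO 2 and PAD2KO 3) in batch 1, and 3 WT libraries (WT 5, WT 6 and WT 7) and 2 PAD2KO libraries (PAD2KO 6 and PAD2KO 7) in batch 2. The series title names TNF induction, but the labels give no treatment for any library, nor the age in days, the strain, the kind of knockout allele or what distinguished the batches. Nor do they say whether replicates were separate animals or cultures; each p-value therefore reflects library-to-library spread alone, possibly of technical origin.

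Glycolysis splits glucose into pyruvate in a preparatory phase that spends ATP and a payoff phase that regenerates it, and lactate dehydrogenase turns pyruvate into lactate for export. Hypoxia-inducible factor 1 (HIF-1) is made of an oxygen-labile alpha subunit, encoded by Hif1a, and a stable partner; with oxygen present, prolyl hydroxylases mark the alpha subunit for destruction. When oxygen falls, HIF-1 accumulates and binds hypoxia response elements near genes of glucose uptake, glycolysis, lactate export and mitophagy, and much of this control acts on protein stability, which RNA counts do not measure.

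Library facts bear on all values below. Named genes received 962633 to 1421243 counts per library, of which Rn18s, a ribosomal RNA gene, made up 8.52% to 12.1%. Levels are given as CPM, counts scaled to the normalised library size, and the upper limit that 0 counts allow, 3 counts, came to 2.11 to 3.22 CPM; this limit covers counting error only. Library values are listed in the order of the library numbers within a group, and estimates are log2 differences, batch 2 minus batch 1 or PAD2KO minus WT. Padi2, the gene of the enzyme, had 0 to 2 counts in the 6 WT libraries and 0 to 4 counts in the 5 PAD2KO libraries, at or near that limit in both genotypes, so its counts do not check the genotype labels. The 9 fibroblast markers summed to at least 5944 CPM in every library, whereas 7 endothelial markers summed to at most 15 CPM and 9 epithelial markers to at most 48.4 CPM.

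The promoters of the members were searched for the letters ACGTG, a core of the hypoxia response element, in the RefSeq table of promoter windows (build GRCm38.p6; the submitters' processing notes name GRCm39 for the counts). Each window ran from 250 bases before a gene's start to 50 bases after it, both strands were searched, and the palindrome CACGTG counted once on each strand. A window was found for 32 of 34 members (none for Slc2a3 and Ndrg1), and 23 of these 32 (71.9%) held ACGTG, against 21.8% of the 27025 genes in the table. Counted by window, since some genes have several starts, 26 of 46 member windows (56.5%) and 19.6% of all 32851 windows held it. The member windows were also richer in G and C, with a median of 61.7% against 52.7%, and the part of base composition in the difference was not tested. Members were listed in part as genes known to be induced by hypoxia, and the 27025 genes include ones with too few counts to test. The part of these choices in the difference was not tested either. For the alternative core GCGTG the shares were 62.5% of members and 35.2% of genes.
The 160 bases before the start are shown 5′ to 3′ on the gene's own strand, with ACGTG or its reverse complement CACGT in capitals, for 5 members with a match that rose between the batches in both genotypes and for 2 without a match (Adm and Eno2) that alone passed the test between genotypes in batch 2; where a gene has several starts, the window with most matches is shown. The rise between batches did not follow the match in every member. Of 19 tested members with ACGTG in a window, 11 rose in both genotypes, and of 9 tested members with a window but no match, 3 did (Gpi1, Pfkl and Eno1). The same shares over all genes with or without a match were not computed, so these counts have no background and link no match to a rise. The 7 stretches lie at chr7:46845644-46845803 (+ strand), chrX:106186940-106187099 (+), chr4:119108585-119108744 (+), chr11:120948907-120949066 (+), chr7:138909507-138909666 (- strand), chr7:110627497-110627656 (+) and chr6:124769674-124769833 (-).
Ldha: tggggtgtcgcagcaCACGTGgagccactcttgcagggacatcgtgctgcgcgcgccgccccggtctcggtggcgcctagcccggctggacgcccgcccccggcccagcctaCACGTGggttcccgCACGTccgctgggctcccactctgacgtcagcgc
Pgk1: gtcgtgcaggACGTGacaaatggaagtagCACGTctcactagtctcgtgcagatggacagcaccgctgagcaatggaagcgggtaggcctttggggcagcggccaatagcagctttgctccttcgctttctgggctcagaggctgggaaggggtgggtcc
Slc2a1: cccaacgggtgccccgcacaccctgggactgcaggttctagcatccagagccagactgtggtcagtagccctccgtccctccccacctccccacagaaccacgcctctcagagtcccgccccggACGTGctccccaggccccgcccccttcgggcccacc
Slc16a3: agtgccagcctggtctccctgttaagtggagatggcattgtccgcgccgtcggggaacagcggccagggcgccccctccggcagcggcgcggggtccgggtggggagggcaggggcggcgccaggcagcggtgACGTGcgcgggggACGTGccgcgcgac
Bnip3: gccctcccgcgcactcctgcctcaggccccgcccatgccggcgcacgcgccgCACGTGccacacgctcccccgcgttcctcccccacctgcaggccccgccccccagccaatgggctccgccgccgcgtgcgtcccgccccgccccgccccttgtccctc
Adm: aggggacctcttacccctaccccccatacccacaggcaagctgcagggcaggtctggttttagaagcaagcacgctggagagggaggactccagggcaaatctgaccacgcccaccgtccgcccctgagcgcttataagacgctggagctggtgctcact
Eno2: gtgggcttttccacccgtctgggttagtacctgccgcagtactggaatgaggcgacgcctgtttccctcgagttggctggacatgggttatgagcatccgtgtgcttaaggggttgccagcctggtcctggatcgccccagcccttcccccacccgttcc
Ldha held 5 matches in this stretch, Pgk1, Slc16a3 and Bnip3 held 2 each, and Slc2a1 held 1. A match is a description of letters, not of a bound site, and the 0 matches of Adm and Eno2 say only that these letters are not in this window; the stretch of Adm held 2 copies of the alternative core GCGTG and that of Eno2 held 0.

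Transcripts of the set were more abundant in batch 2 in both genotypes. The 34 members together made up 0.941% to 1.07% of named counts in WT of batch 1 and 1.83% to 1.98% in WT of batch 2. In PAD2KO they made up 1.12% to 1.31% in batch 1 and 1.79% to 1.86% in batch 2. On the length-adjusted TPM scale that the authors deposited, the members summed to 7983 to 9557 in WT and 9524 to 11589 in PAD2KO of batch 1, and to 15043 to 16175 in WT and 14847 to 15719 in PAD2KO of batch 2. Every library of batch 2 lay above every library of batch 1 in these sums.

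In WT, 19 of the 29 tested members rose from batch 1 to batch 2 and 0 fell, at an adjusted p under 0.05 (edgeR quasi-likelihood test, Benjamini-Hochberg adjustment over 9932 genes), where 22.3% of all tested genes were called, 11.7% as higher and 10.6% as lower. The 19 folds ran from 1.68 to 5.28. The median log2 difference of the 29 was 0.90, against -0.0040 over all genes tested. For 20 of the 29 every WT library of batch 2 lay above every WT library of batch 1, as it did for 18.7% of all genes.

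In PAD2KO, 14 of 29 rose between the same batches, by 1.28-fold to 2.46-fold, and 1 (Eno2) fell. Here 18.7% of all genes were called, 9.52% as higher and 9.13% as lower. The median log2 difference was 0.43, against -0.017 over all genes. In 18 of 29 the PAD2KO libraries did not overlap with batch 2 above, against 22.4% of all genes, and in 1 they did not overlap with batch 2 below, against 23.7%. Because the labels do not say how the batches differed, these differences belong to the batches as wholes. The members were chosen with earlier results of these data known. The shares over all genes therefore stand beside their counts as a description, not as an independent test.

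**Figure D1:**
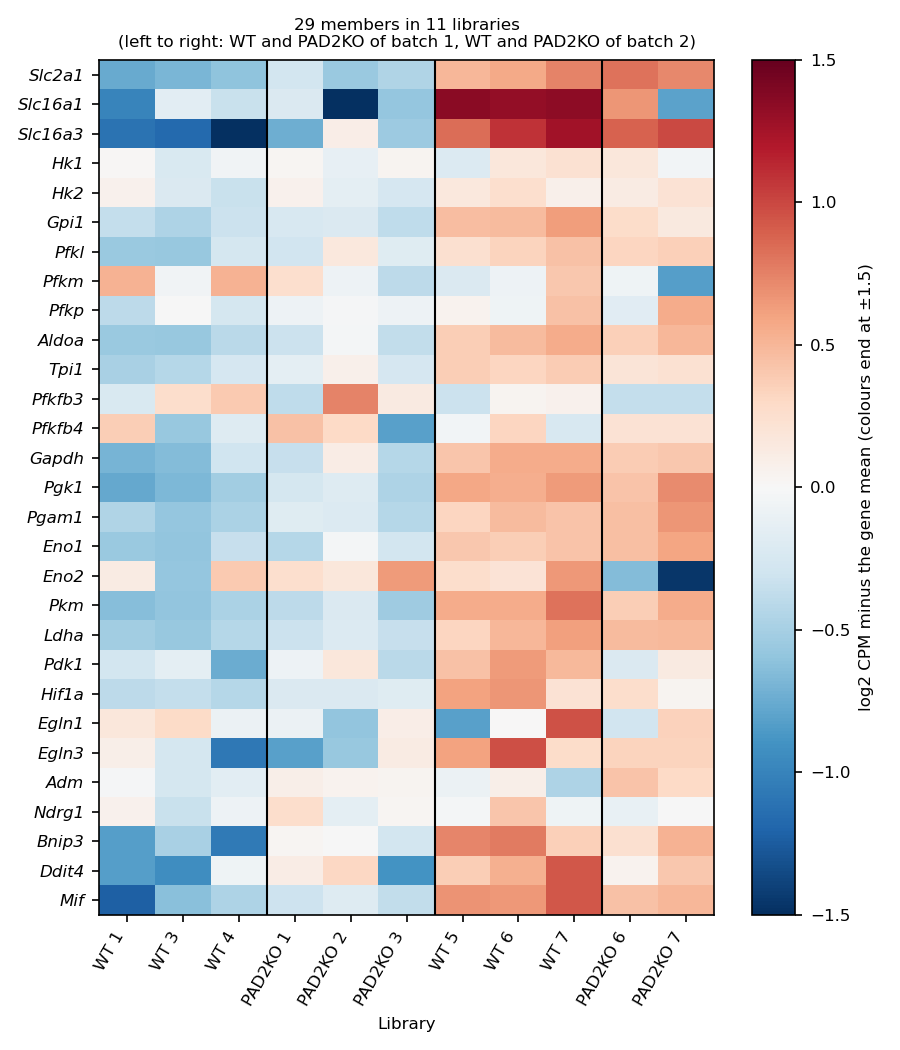
Level of each tested member in each of the 11 libraries, as log2 CPM minus the gene's mean over the libraries (colour scale, ending at ±1.5). Most rows turn from blue in the 6 libraries of batch 1 to red in the 5 libraries of batch 2. Rows such as Pfkm, Pfkfb3, Pfkfb4, Hk1, Ndrg1, Egln1 and Adm show no such step, and Eno2 is lowest in PAD2KO 6 and PAD2KO 7.

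Between genotypes far fewer members passed. In batch 1, 0 of 29 members differed between PAD2KO and WT by edgeR's adjusted p, where 0.131% of all genes were called, 0.0201% as higher and 0.111% as lower; DESeq2 also called 0, and 11 members had an unadjusted p under 0.05, against 5.49% of all genes. Estimates were positive for 25 of 29 and negative for 4, with a median log2 difference of 0.22 against -0.0011 over all genes, and 11 members had all 3 PAD2KO libraries above all 3 WT libraries, against 5.41% of genes, and 0 had them all below, against 5.92%. In batch 2, 2 of 29 differed, Adm higher and Eno2 lower in PAD2KO, where 3.11% of all genes were called, 1.4% as higher and 1.71% as lower; 6 had an unadjusted p under 0.05, against 14.4% of all genes. There 9 estimates were positive and 20 negative, with a median of -0.13 against -0.0068 over all genes; 2 members did not overlap with PAD2KO above (15.5% of genes) and 8 with PAD2KO below (15.7% of genes). With a single term for genotype over both batches, 0 of 29 members were called by edgeR and 0 by DESeq2 (0.191% of all genes by edgeR, 0.0201% as higher and 0.171% as lower), and 6 had an unadjusted p under 0.05, against 7.64% of all genes.

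The genotype difference itself differed between the batches for 3 members, Eno2, Bnip3 and Slc16a3, each lower in batch 2 relative to batch 1, where 1.62% of all genes were called, 0.957% in that direction. The estimate of this difference of differences was negative for 26 of 29 members, with a median of -0.37 against -0.0071 over all genes. It is the same quantity as the batch difference in PAD2KO minus that in WT. Without PAD2KO 7 the count was 0, and it was 1 without WT 1, without WT 3, without WT 6, without PAD2KO 2 or without PAD2KO 3.

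**Figure D2:**
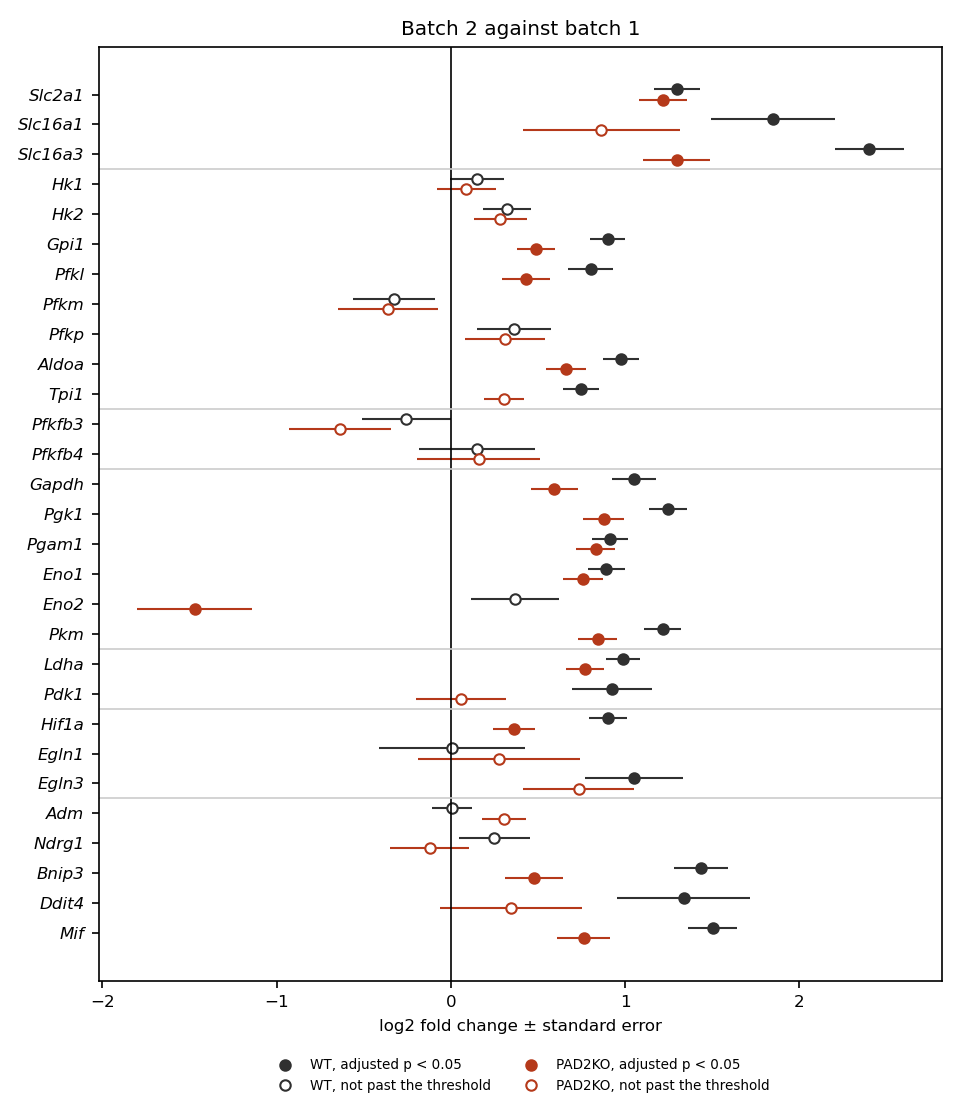
Log2 fold change of batch 2 against batch 1 for each tested member (rows, in groups by role), in WT (black) and PAD2KO (red), with bars of 1 standard error; filled points passed an adjusted p of 0.05. 19 WT points and 14 PAD2KO points are filled to the right of 0, and the filled point to the left is Eno2 in PAD2KO.

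The largest rise of the set between batches was in a transporter. Slc16a3 encodes MCT4, the lactate exporter of glycolytic cells. Its level was 29.2, 28.1 and 20.1 CPM in WT and 38.5, 69.7 and 43.8 CPM in PAD2KO of batch 1, and 117, 139 and 158 CPM in WT and 121 and 130.3 CPM in PAD2KO of batch 2. All batch 2 libraries lay above all batch 1 libraries, and in batch 1 the 3 PAD2KO libraries lay above the 3 WT libraries. Slc16a3 was 5.28-fold higher in batch 2 in WT, a log2 difference of 2.40 (SE 0.20, adjusted p = 7.04e-10), and 2.46-fold higher in PAD2KO, a log2 difference of 1.3 (SE 0.19, adjusted p = 2.29e-05). The 2 differences were themselves apart by a log2 difference of -1.10 (SE 0.28, adjusted p = 0.0429), a call that ended in 12 of 19 alternatives, among them each of the 9 that left out WT 1, WT 3, WT 4, WT 6, WT 7, PAD2KO 2, PAD2KO 3, PAD2KO 6 or PAD2KO 7 (adjusted p = 0.0544 to 0.174). Within batch 1 the PAD2KO estimate was 0.98 (SE 0.22, adjusted p = 0.0964) and did not pass. It passed without PAD2KO 1 (1.13, adjusted p = 0.024), with offsets from the deposited gene lengths (1.27, adjusted p = 0.0362) and with no filter on low counts (0.99, adjusted p = 0.00026). Within batch 2 it was -0.13.

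Slc2a1 encodes GLUT1, the basal glucose carrier of most cells. Its level was 57.6, 60.5 and 64.4 CPM in WT and 81.1, 66.2 and 71.3 CPM in PAD2KO of batch 1, and 139.5, 146 and 165 CPM in WT and 175 and 163 CPM in PAD2KO of batch 2. The batches were fully apart in both genotypes; PAD2KO lay above WT in batch 1, and the genotypes overlapped in batch 2. Slc2a1 rose 2.46-fold in WT, a log2 difference of 1.3 (SE 0.13, adjusted p = 1.13e-08), and 2.32-fold in PAD2KO, a log2 difference of 1.22 (SE 0.14, adjusted p = 2.21e-07); the difference between these was -0.08 and did not pass. Slc16a1 encodes MCT1, which carries lactate and pyruvate in either direction. It stood at 15.8, 29.5 and 25.8 CPM in WT and 28.1, 9.85 and 21.5 CPM in PAD2KO of batch 1, and 87.1, 85.0 and 85.9 CPM in WT and 53.4 and 18.3 CPM in PAD2KO of batch 2. The 3 WT libraries of batch 2 were high and nearly equal, whereas the 2 PAD2KO libraries of batch 2 were far apart and PAD2KO 7 fell within the range of batch 1. Slc16a1 rose in WT, by a log2 difference of 1.85 (SE 0.36, adjusted p = 0.00243). The PAD2KO estimate of 0.86 (SE 0.45, adjusted p = 0.229) did not pass. It passed with no filter on low counts (0.88, adjusted p = 0.0123) and was 1.44 without PAD2KO 7. Against WT within batch 2, PAD2KO stood at -1.27 (SE 0.38, adjusted p = 0.117). This passed without PAD2KO 2 (-1.26, adjusted p = 0.0361) and with no filter on low counts (-1.24, adjusted p = 8.80e-06). Without PAD2KO 6, which leaves 1 library in that group, it was -2.23 and the difference of differences was -1.94. Slc2a3, the high-affinity glucose carrier GLUT3, had 83 counts in all 11 libraries together and was not tested.

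In the preparatory phase, 4 of 8 tested enzymes rose in WT and 3 of 8 in PAD2KO, where 11.7% and 9.52% of all genes were called higher. Aldoa, the aldolase of muscle and most other cells, was the most abundant of them per length. Its level was 848, 841 and 939 CPM in WT and 992, 1214 and 961 CPM in PAD2KO of batch 1, and 1608, 1725 and 1837 CPM in WT and 1588 and 1750.4 CPM in PAD2KO of batch 2. Every batch 2 library was above every batch 1 library, and the estimates were 0.98 (SE 0.10, adjusted p = 3.34e-08) in WT and 0.66 (SE 0.11, adjusted p = 1.11e-04) in PAD2KO. Gpi1, which converts glucose 6-phosphate to fructose 6-phosphate, stood at 407, 379 and 417 CPM in WT and 442, 448 and 399 CPM in PAD2KO of batch 1, and 718, 725 and 803 CPM in WT and 631 and 575 CPM in PAD2KO of batch 2. Batch 2 was above batch 1 throughout, and within batch 2 both PAD2KO libraries lay below the 3 WT libraries. Gpi1 rose by 0.90 (SE 0.10, adjusted p = 7.66e-08) on the log2 scale in WT and by 0.49 (SE 0.11, adjusted p = 0.0021) in PAD2KO, and the PAD2KO estimate within batch 2, -0.31 (SE 0.11, adjusted p = 0.146), did not pass.

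Pfkl encodes the liver-type subunit of phosphofructokinase, the committed step of glycolysis. It stood at 118, 117 and 145 CPM in WT and 143, 195 and 154 CPM in PAD2KO of batch 1, and 207, 220.0 and 236 CPM in WT and 218 and 224 CPM in PAD2KO of batch 2. The batches did not overlap, with PAD2KO 2 highest in batch 1. Pfkl rose by 0.80 (SE 0.13, adjusted p = 2.07e-05) in WT and by 0.43 (SE 0.14, adjusted p = 0.0277) in PAD2KO on the log2 scale; the latter did not pass with DESeq2 (adjusted p = 0.0687) or without PAD2KO 1, PAD2KO 3, PAD2KO 6 or PAD2KO 7 (adjusted p = 0.0988 to 0.16). Tpi1, triose-phosphate isomerase, stood at 506, 528 and 597 CPM in WT and 641, 751 and 599 CPM in PAD2KO of batch 1, and 921, 889.6 and 924 CPM in WT and 812 and 830.3 CPM in PAD2KO of batch 2. Its batch 2 libraries were again all above those of batch 1, and its estimates were 0.75 (SE 0.10, adjusted p = 2.73e-06) in WT and 0.31 (SE 0.11, adjusted p = 0.0609) in PAD2KO; the second passed without WT 7 (0.31, adjusted p = 0.0445) and without PAD2KO 2 (0.41, adjusted p = 0.0193). With offsets from the deposited gene lengths, Pfkl no longer passed in WT (adjusted p = 0.0701) or in PAD2KO (adjusted p = 0.296).

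The other preparatory enzymes changed little between batches. The hexokinases Hk1 and Hk2, which trap glucose in the cell, gave estimates of 0.15 and 0.32 in WT and 0.09 and 0.28 in PAD2KO, none past the threshold. For Hk2 the WT estimate depended on how the counts were treated, reaching 1.16 (adjusted p = 0.0186) with offsets from the deposited gene lengths and 0.44 (adjusted p = 0.0413) without WT 1. The muscle and platelet phosphofructokinases gave -0.32 (Pfkm) and 0.36 (Pfkp) in WT. Aldoc, the brain aldolase, had 51 counts in all and was not tested. As shares of the summed TPM of the 3 phosphofructokinase genes, Pfkl made up 58.2% ± 9.23 (SD, n = 3) in WT and 63.3% ± 4.31 (n = 3) in PAD2KO of batch 1, and 71.2% ± 2.55 (n = 3) in WT and 70.9% ± 0.218 (n = 2) in PAD2KO of batch 2.

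Pfkfb3 and Pfkfb4 make and break fructose 2,6-bisphosphate, the allosteric activator of phosphofructokinase, and neither was called in any comparison. Pfkfb3 stood at 26.0, 37.4 and 41.1 CPM in WT and 23.3, 52.8 and 34.1 CPM in PAD2KO of batch 1, and 24.4, 31.8 and 32.2 CPM in WT and 23.8 and 23.8 CPM in PAD2KO of batch 2. The libraries of both batches overlapped in both genotypes, and PAD2KO 2 was the highest of all. Its smallest p was in PAD2KO between batches, where it stood at -0.64 (SE 0.29, adjusted p = 0.138); without PAD2KO 1 that became -0.86 (adjusted p = 0.0326). Pfkfb4 ranged from 8.91 to 23.3 CPM over the 11 libraries, with log2 batch differences of 0.15 in WT and 0.16 in PAD2KO.

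In the payoff phase, 5 of 6 genes rose in both genotypes, and the other, Eno2, fell in PAD2KO. Of all genes, 11.7% were called higher in WT, and 9.52% higher and 9.13% lower in PAD2KO. The share called higher in both genotypes was not computed. Pkm encodes the pyruvate kinase of most tissues other than liver and blood. Its level was 1572, 1623 and 1773 CPM in WT and 1873, 2114 and 1692 CPM in PAD2KO of batch 1, and 3605, 3612 and 4327 CPM in WT and 3164 and 3620.0 CPM in PAD2KO of batch 2. The gap between batches was wide, with PAD2KO 6, the lowest of batch 2, well above PAD2KO 2, the highest of batch 1. Pkm was 2.32-fold higher in batch 2 in WT, a log2 difference of 1.22 (SE 0.11, adjusted p = 5.79e-10), and 1.79-fold higher in PAD2KO, a log2 difference of 0.84 (SE 0.11, adjusted p = 4.27e-06). Pgk1, phosphoglycerate kinase, forms the first ATP of this phase. It stood at 299.8, 319.5 and 357 CPM in WT and 425, 449.8 and 371 CPM in PAD2KO of batch 1, and 767, 747 and 799 CPM in WT and 689 and 838 CPM in PAD2KO of batch 2. All batch 2 libraries lay above all batch 1 libraries, and in batch 1 the PAD2KO libraries lay above those of WT. Pgk1 rose by a log2 difference of 1.24 (SE 0.11, adjusted p = 7.94e-10) in WT and 0.88 (SE 0.12, adjusted p = 3.67e-06) in PAD2KO; within batch 1 the PAD2KO estimate of 0.35 (SE 0.11, adjusted p = 0.367) did not pass.

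Gapdh, glyceraldehyde-3-phosphate dehydrogenase, is often used as a reference gene for expression, and it was the most abundant member per length. Its level was 1137, 1171 and 1492 CPM in WT and 1454, 1983 and 1372 CPM in PAD2KO of batch 1, and 2464, 2703 and 2709.8 CPM in WT and 2401 and 2438 CPM in PAD2KO of batch 2. No batch 1 library reached the batch 2 libraries, while the genotypes overlapped within batch 1 and PAD2KO lay just below WT in batch 2. Gapdh rose 2.07-fold in WT, a log2 difference of 1.05 (SE 0.12, adjusted p = 6.36e-07), and 1.51-fold in PAD2KO, a log2 difference of 0.59 (SE 0.14, adjusted p = 0.00302); with length offsets the PAD2KO difference did not pass (adjusted p = 0.0852). Pseudogene copies named for Gapdh held at most 0.206% as many counts as the gene. Pgam1, phosphoglycerate mutase, stood at 434, 397 and 428 CPM in WT and 523, 517 and 442 CPM in PAD2KO of batch 1, and 744, 828 and 799.8 CPM in WT and 815 and 941 CPM in PAD2KO of batch 2. Again every batch 2 library was above batch 1, with estimates of 0.91 (SE 0.10, adjusted p = 9.79e-08) in WT and 0.83 (SE 0.11, adjusted p = 4.12e-06) in PAD2KO.

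Enolase removes water from 2-phosphoglycerate and is encoded by 3 genes. Eno1, the form of most cells, stood at 1146, 1116 and 1321 CPM in WT and 1244, 1650.5 and 1385 CPM in PAD2KO of batch 1, and 2224, 2167 and 2256 CPM in WT and 2295 and 2525 CPM in PAD2KO of batch 2. The batches did not overlap in either genotype, and Eno1 rose by 0.89 (SE 0.11, adjusted p = 1.91e-07) in WT and 0.76 (SE 0.12, adjusted p = 2.07e-05) in PAD2KO on the log2 scale. Eno1 lies on chromosome 4, as does Padi2, with 54 tested genes from one to the other. Slc2a1, farther off on the other side of Padi2, and Car9 lie on this chromosome too. Eno2, the form enriched in neurons, stood at 29.2, 17.3 and 35.4 CPM in WT and 32.1, 30.3 and 42.3 CPM in PAD2KO of batch 1, and 32.5, 31.0 and 42.9 CPM in WT and 16.4 and 8.74 CPM in PAD2KO of batch 2. Both PAD2KO libraries of batch 2 lay below every other library, PAD2KO 7 at 11 counts, while the other 3 groups overlapped. Eno2 was lower in PAD2KO than in WT within batch 2, a log2 difference of -1.47 (SE 0.33, adjusted p = 0.0104). It fell in PAD2KO from batch 1 to batch 2, with a log2 difference of -1.47 (SE 0.33, adjusted p = 0.00189), and the genotype difference of batch 2 minus that of batch 1 was -1.84 (SE 0.42, adjusted p = 0.0181). Without PAD2KO 7 these estimates were -1.09 (adjusted p = 0.347), -1.09 (adjusted p = 0.0747) and -1.46 (adjusted p = 0.235), and the third also failed without WT 3 (-1.58, adjusted p = 0.0564) or without PAD2KO 3 (-1.67, adjusted p = 0.0639). With length offsets they were -1.23 (adjusted p = 0.195), -0.61 (adjusted p = 0.38) and -1.11 (adjusted p = 0.483). Eno3, the muscle form and no member of the set, fell between batches, with log2 differences of -1.10 (SE 0.23, adjusted p = 0.00275) in WT and -0.80 (SE 0.24, adjusted p = 0.0323) in PAD2KO. As a share of summed enolase TPM, Eno3 went from 14.0% ± 1.97 (n = 3) to 4.41% ± 1.78 (n = 3) in WT and from 13.2% ± 1.28 (n = 3) to 5.03% ± 1.53 (n = 2) in PAD2KO.

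**Figure D3:**
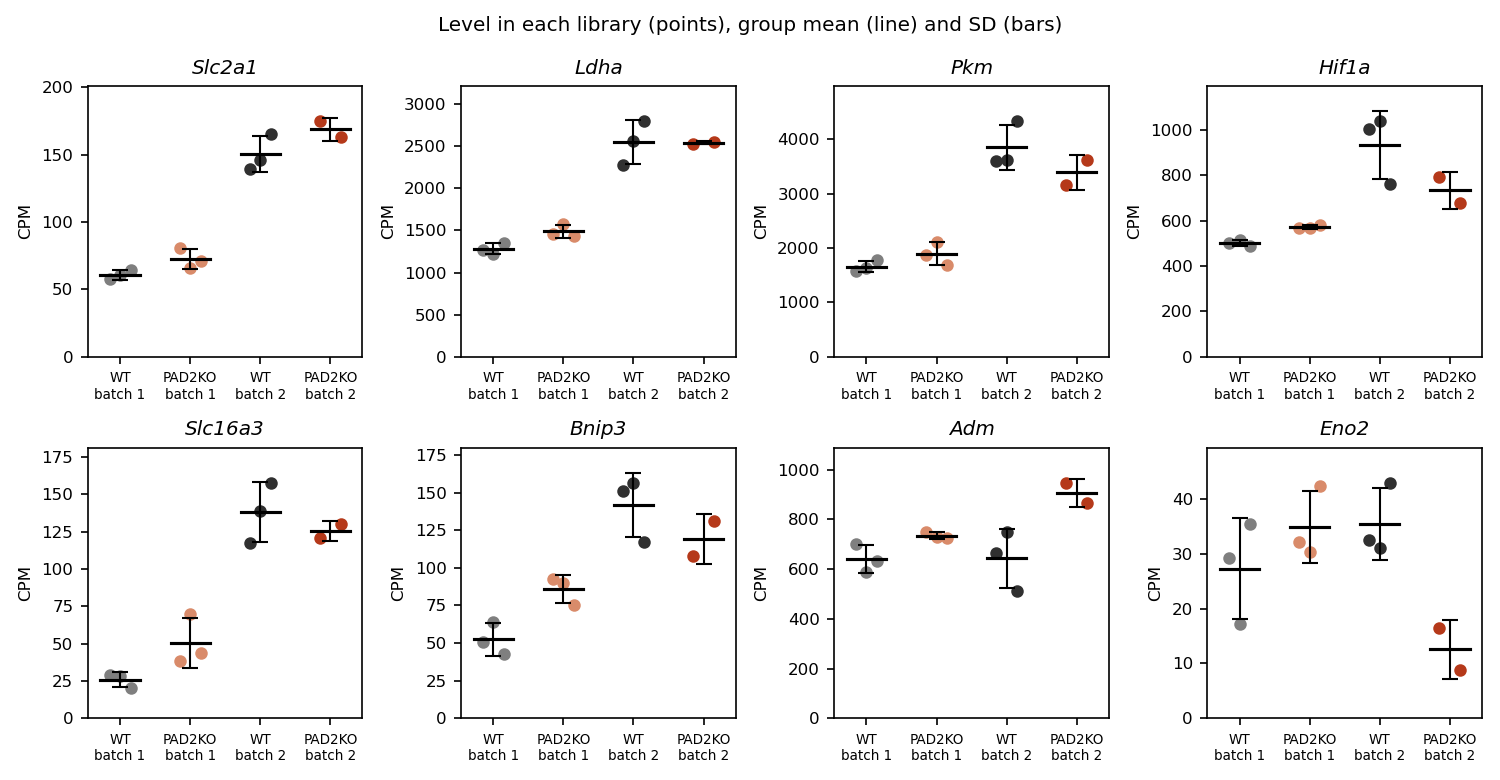
CPM of 8 members in each library (points), by genotype and batch, with group means (lines) and SDs (bars); every axis starts at 0. Slc2a1, Ldha, Pkm, Hif1a, Slc16a3 and Bnip3 are higher in all 5 libraries of batch 2 than in the 6 of batch 1, Adm is highest in the 2 PAD2KO libraries of batch 2, and Eno2 is lowest there.

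At the fate of pyruvate, Ldha, which encodes the lactate dehydrogenase subunit that favours lactate formation, stood at 1270.3, 1223 and 1352 CPM in WT and 1453, 1582 and 1438 CPM in PAD2KO of batch 1, and 2273, 2565 and 2795 CPM in WT and 2529 and 2554 CPM in PAD2KO of batch 2. The batches were fully apart, and within batch 2 the PAD2KO libraries lay inside the WT range. Ldha was 1.98-fold higher in batch 2 in WT, a log2 difference of 0.99 (SE 0.10, adjusted p = 7.41e-09), and 1.70-fold higher in PAD2KO, a log2 difference of 0.77 (SE 0.11, adjusted p = 5.43e-06). Ldhb, the subunit of oxidative tissues and no member of the set, did not follow it in PAD2KO. Ldhb stood at 118, 122 and 138 CPM in WT and 128, 116 and 105 CPM in PAD2KO of batch 1, and 217, 245 and 266 CPM in WT and 116 and 77.9 CPM in PAD2KO of batch 2. In WT it was higher in every batch 2 library, but in batch 2 both PAD2KO libraries lay below all 3 WT libraries. Ldhb was lower in PAD2KO than in WT in batch 2, with a log2 difference of -1.32 (SE 0.16, adjusted p = 3.78e-06), and the genotype difference of batch 2 minus that of batch 1 was -1.21 (SE 0.21, adjusted p = 0.00136); without PAD2KO 7 the latter was -0.95 (adjusted p = 0.0513). Ldhb took 11% ± 0.474 (n = 3) of summed Ldha and Ldhb TPM in WT and 9.36% ± 0.497 (n = 3) in PAD2KO of batch 1, and 11.5% ± 0.161 (n = 3) in WT and 4.62% ± 1.22 (n = 2) in PAD2KO of batch 2.

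Pdk1 encodes a kinase that switches off pyruvate dehydrogenase and so keeps pyruvate from the mitochondrial citric acid cycle. It stood at 22.9, 25.2 and 16.1 CPM in WT and 26.5, 31.7 and 20.8 CPM in PAD2KO of batch 1, and 38.4, 44.5 and 39.7 CPM in WT and 23.8 and 31.0 CPM in PAD2KO of batch 2. The 3 WT libraries of batch 2 were above all others, and the PAD2KO libraries of the batches overlapped. Pdk1 rose in WT by a log2 difference of 0.92 (SE 0.23, adjusted p = 0.00318), and the PAD2KO estimate was 0.06 (SE 0.26, adjusted p = 0.916); the difference of these, -0.87 (SE 0.34, adjusted p = 0.272), did not pass. Per length, Pdk1 was a minor form among the 4 Pdk genes, with 6.62% ± 1.17 (n = 3) of their TPM in WT of batch 1 and 21.3% ± 6.34 (n = 3) in WT of batch 2. In PAD2KO it took 8.91% ± 2.79 (n = 3) in batch 1 and 15% ± 0.714 (n = 2) in batch 2. A share also depends on the other forms. Mean TPM in PAD2KO went from 7.33 to 9.22 for Pdk1, from 15.3 to 6.03 for Pdk2, from 54.8 to 43.3 for Pdk3 and from 5.09 to 3.08 for Pdk4.

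**Figure D4:**
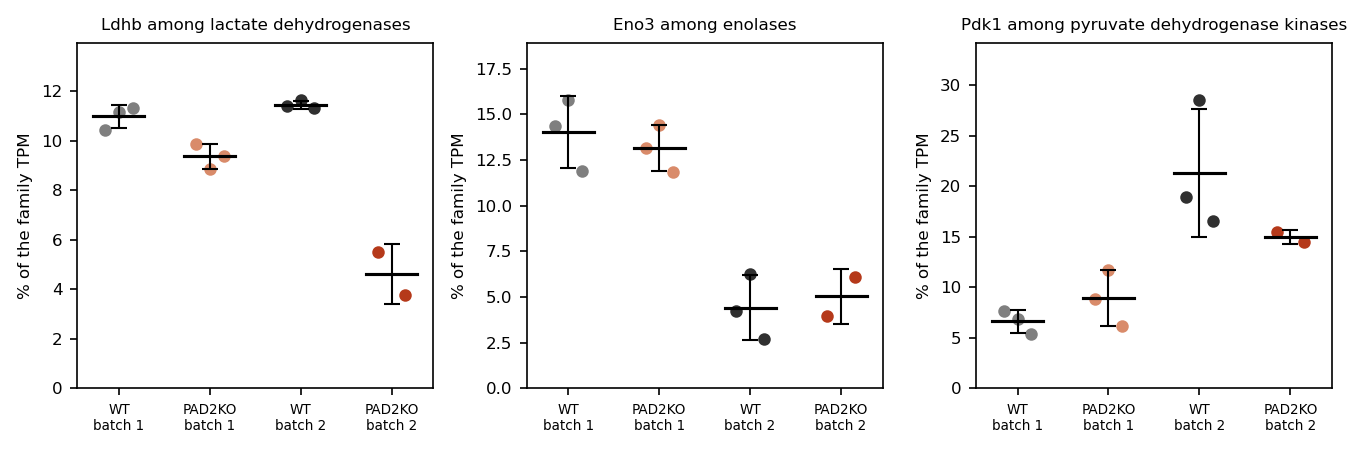
Share of summed family TPM taken by Ldhb, Eno3 and Pdk1 in each library (points), by genotype and batch, with group means (lines) and SDs (bars); axes start at 0. Ldhb is at 4.62% on average in PAD2KO of batch 2 and between 9.36% and 11.5% in the other 3 groups. The share of Eno3 is lower and that of Pdk1 higher in batch 2 in both genotypes, although Pdk1 counts were not called between batches in PAD2KO.

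Among the oxygen-sensing genes, Hif1a stood at 502, 513 and 488 CPM in WT and 566, 566 and 581 CPM in PAD2KO of batch 1, and 1002, 1037 and 762 CPM in WT and 791 and 675 CPM in PAD2KO of batch 2. Each batch 2 library was above each batch 1 library; in batch 1 PAD2KO lay above WT, and in batch 2 WT 7 and the PAD2KO libraries overlapped below WT 5 and WT 6. Hif1a rose 1.87-fold in WT, a log2 difference of 0.90 (SE 0.11, adjusted p = 3.60e-07), and 1.28-fold in PAD2KO, a log2 difference of 0.36 (SE 0.12, adjusted p = 0.0378). The PAD2KO call ended with DESeq2 (0.37, adjusted p = 0.0586), with length offsets (0.34, adjusted p = 0.199) and without WT 3, PAD2KO 1, PAD2KO 2, PAD2KO 3 or PAD2KO 6 (adjusted p = 0.0529 to 0.344). PAD2KO against WT within batch 2 gave -0.35 (SE 0.12, adjusted p = 0.132), and the difference of differences gave -0.54 (SE 0.17, adjusted p = 0.108). Without WT 7, whose 8 immune markers held 218 counts against 20 to 93 in other libraries, both passed (-0.48, adjusted p = 0.0142, and -0.67, adjusted p = 0.0112); the part of these cells was not tested.

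Egln3 encodes PHD3, a prolyl hydroxylase that is itself induced by HIF. It stood at 25.2, 19.4 and 10.5 CPM in WT and 12.8, 15.5 and 26.0 CPM in PAD2KO of batch 1, and 36.9, 47.7 and 29 CPM in WT and 30.4 and 30.2 CPM in PAD2KO of batch 2. In WT the batches did not overlap, and in PAD2KO both batch 2 libraries lay above the 3 of batch 1. Egln3 rose in WT by 1.05 (SE 0.28, adjusted p = 0.00668), a call lost without WT 6 (0.86, adjusted p = 0.064) and with length offsets (1.04, adjusted p = 0.0715); in PAD2KO the estimate was 0.73 (SE 0.32, adjusted p = 0.114), which passed without PAD2KO 3 (1.08, adjusted p = 0.0391). Egln1, which encodes PHD2, the main hydroxylase of HIF in normal oxygen, had 7 to 20 counts a library and estimates of 0.01 in WT and 0.27 in PAD2KO.

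Of the other hypoxia-induced members, Bnip3, a receptor for the removal of mitochondria, stood at 50.5, 64.1 and 42.7 CPM in WT and 92.3, 90.1 and 75.0 CPM in PAD2KO of batch 1, and 151, 156 and 117 CPM in WT and 108 and 131 CPM in PAD2KO of batch 2. Batch 2 was above batch 1 throughout, and the 3 PAD2KO libraries of batch 1 were above the 3 WT libraries there. Bnip3 rose 2.71-fold in WT, a log2 difference of 1.44 (SE 0.16, adjusted p = 4.91e-08), and 1.39-fold in PAD2KO, a log2 difference of 0.48 (SE 0.16, adjusted p = 0.042). The PAD2KO call ended with DESeq2 (adjusted p = 0.122), with length offsets (adjusted p = 0.196) and without PAD2KO 2 (0.52, adjusted p = 0.0558), PAD2KO 3 (0.39, adjusted p = 0.168) or PAD2KO 7 (0.32, adjusted p = 0.398). The difference between the genotypes' batch differences was -0.96 (SE 0.23, adjusted p = 0.0251), and it ended in 11 of 19 alternatives, 8 of which left out WT 1, WT 4, WT 5, WT 6, PAD2KO 1, PAD2KO 2, PAD2KO 6 or PAD2KO 7 (adjusted p = 0.0541 to 0.1). In batch 1 the genotype estimate of 0.70 (SE 0.16, adjusted p = 0.0964) did not pass. It passed without WT 7 (0.70, adjusted p = 0.0421) and with no filter on low counts (0.71, adjusted p = 0.00402).

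Mif encodes macrophage migration inhibitory factor, a cytokine with HIF-responsive expression. It stood at 128, 194 and 217 CPM in WT and 242, 263 and 232 CPM in PAD2KO of batch 1, and 481, 474 and 577 CPM in WT and 407 and 426 CPM in PAD2KO of batch 2. The batches did not overlap, and in batch 1 PAD2KO lay above WT whereas in batch 2 it lay below. Mif rose by 1.5 (SE 0.14, adjusted p = 1.77e-08) in WT and by 0.76 (SE 0.15, adjusted p = 8.00e-04) in PAD2KO on the log2 scale. The difference of these, -0.74 (SE 0.21, adjusted p = 0.0748), did not pass. It passed without WT 4 (-0.89, adjusted p = 0.021) and with no filter on low counts (-0.71, adjusted p = 0.00631). Ddit4, also called REDD1, restrains mTORC1 under stress. It stood at 5.52, 5.04 and 10.5 CPM in WT and 12.0, 14.1 and 5.2 CPM in PAD2KO of batch 1, and 14.8, 16.7 and 22.5 CPM in WT and 11.5 and 15.1 CPM in PAD2KO of batch 2, or 7 to 21 counts a library. WT libraries of the batches did not overlap, PAD2KO libraries did, and Ddit4 rose in WT by 1.34 (SE 0.38, adjusted p = 0.0109), a call lost without WT 3 (1.14, adjusted p = 0.0663) and with length offsets (1.34, adjusted p = 0.06).

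Adm encodes adrenomedullin, a vasodilator peptide induced by hypoxia, and its pattern was unlike that of the glycolytic genes that rose between batches. Its level was 699.8, 589 and 633 CPM in WT and 749, 729.9 and 724 CPM in PAD2KO of batch 1, and 666, 749.8 and 513 CPM in WT and 947 and 865 CPM in PAD2KO of batch 2. The WT libraries of the batches overlapped, with an estimate of 0.01 (SE 0.11, adjusted p = 0.971), and both PAD2KO libraries of batch 2 were above all others. Adm was 1.41-fold higher in PAD2KO than in WT within batch 2, a log2 difference of 0.49 (SE 0.13, adjusted p = 0.0262), while in batch 1 the estimate was 0.20 (SE 0.11, adjusted p = 0.92), with PAD2KO above WT in all 3 libraries. The batch 2 call was lost when the fit held only those 2 groups (0.50, adjusted p = 0.0778), with length offsets (0.46, adjusted p = 0.178), and without WT 5 (0.53, adjusted p = 0.0504), WT 7 (0.36, adjusted p = 0.113), PAD2KO 6 (0.43, adjusted p = 0.165) or PAD2KO 7 (0.56, adjusted p = 0.135). In PAD2KO between batches the estimate of 0.30 (SE 0.13, adjusted p = 0.0966) passed in 1 of the alternatives run, without WT 7 (0.30, adjusted p = 0.037). The difference of the genotype differences, 0.29 (SE 0.17, adjusted p = 0.535), did not pass.

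Ndrg1, a hypoxia and stress gene, ranged from 30.2 to 51.6 CPM with overlapping groups and log2 batch differences of 0.25 in WT and -0.12 in PAD2KO. The remaining members were near the limit of detection. Vegfa, the vascular growth factor, had 64 counts in all, with a mean of 8.54 ± 1.89 CPM (SD, n = 3) in WT of batch 2 and means of 2.82 to 4.04 CPM in the other 3 groups. Ankrd37 had 25 counts in all and Car9, a carbonic anhydrase widely used as a marker of hypoxia, had 13, with 0 counts in 4 libraries. No fold is given for these genes.

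**Figure D5:**
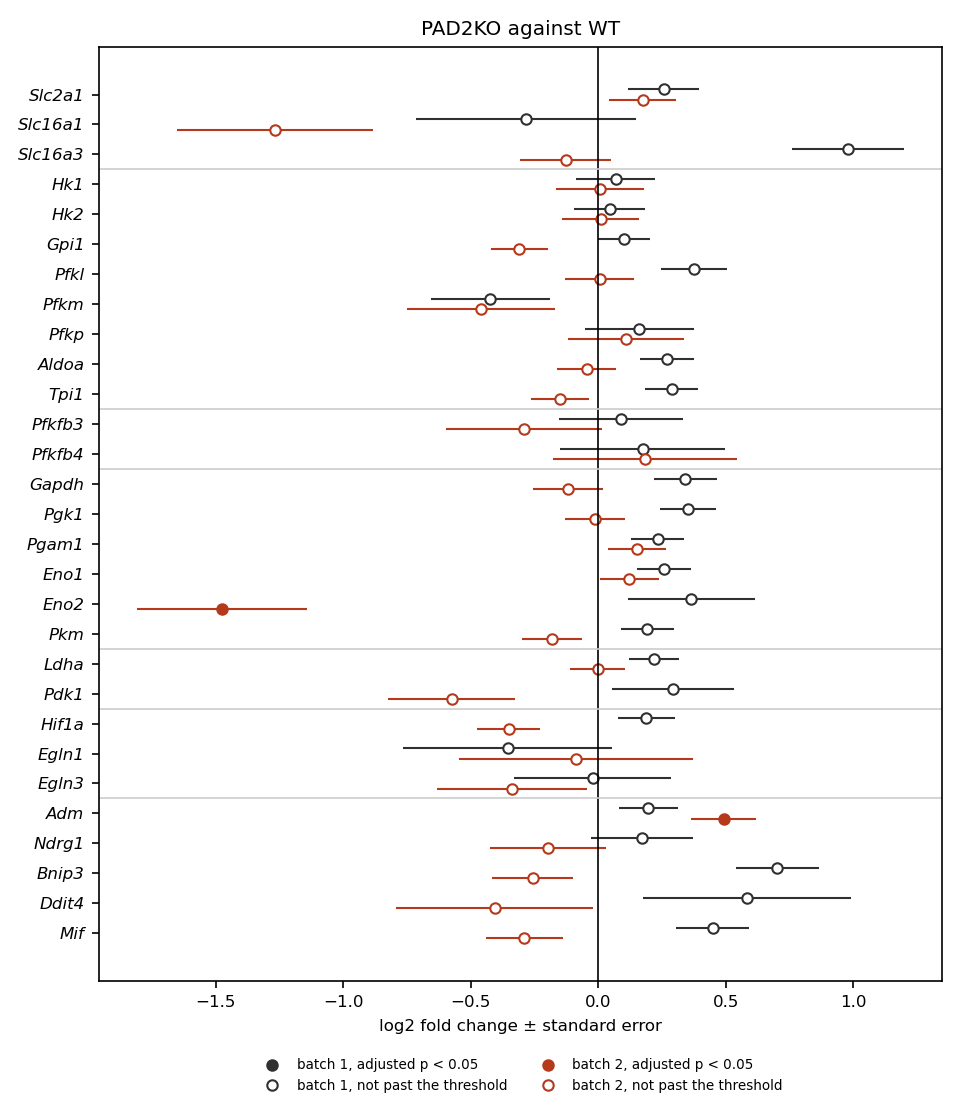
Log2 fold change of PAD2KO against WT for each tested member (rows, in groups by role), in batch 1 (black) and batch 2 (red), with bars of 1 standard error; filled points passed an adjusted p of 0.05. In batch 1 no point is filled and 25 of 29 lie right of 0; in batch 2 Adm is filled on the right and Eno2 on the left, and 20 of 29 lie left of 0.

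Neighbouring genes of the pathways, from lists that hold no member, varied in how they moved. Over all genes tested, 11.7% were called higher and 10.6% lower in WT between batches, and 9.52% and 9.13% in PAD2KO. These shares apply to each list below. Of 24 tested other hypoxia-response genes, 12 rose and 2 fell in WT between batches (median log2 difference 0.59), and 11 rose and 3 fell in PAD2KO (median 0.42). Angptl4, an inhibitor of lipoprotein lipase, rose by 2.18 and 1.80, and Errfi1, a feedback inhibitor of EGF receptor, by 1.37 and 1.61. Lox, the collagen cross-linking oxidase, fell by 2.06 in WT and by 1.90 in PAD2KO on the log2 scale, although it is listed among hypoxia-induced genes. Fam162a, a HIF-responsive mitochondrial protein, rose by 1.77 (SE 0.16, adjusted p = 1.3e-09) in WT and 0.88 (SE 0.17, adjusted p = 3.11e-04) in PAD2KO.
Of 7 tested genes of the pentose phosphate pathway, which draws on glucose 6-phosphate, 4 rose in each genotype (medians 0.51 in WT and 0.47 in PAD2KO), among them G6pdx, its entry enzyme, by 1.18 and 0.72. The 12 tested HIF subunits and regulators gave 0 risen and 1 fallen in WT (median -0.13; Crebbp, a coactivator, -0.35) and 1 risen and 1 fallen in PAD2KO (median -0.12; Epas1, the HIF-2 alpha gene, 1.2). Of 11 tested genes of pyruvate dehydrogenase and its regulators, 1 fell in each genotype and 0 rose (Pdha1 -0.40 in WT, Pdk2 -1.18 in PAD2KO). In the lists of HIF regulators and of pyruvate dehydrogenase genes, the called shares did not exceed those over all genes. Of 7 tested other glycolytic isoforms and regulators, 2 rose (Ldhb and Pgm2) and 1 fell (Eno3) in WT, and 1 fell (Eno3) in PAD2KO.

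Cell type markers moved with the batches beside these genes. The 9 fibroblast markers summed to 12280.1 to 16237 CPM in WT and 11638 to 13416 CPM in PAD2KO of batch 1, and to 6384 to 7173 CPM in WT and 5944 to 6590.0 CPM in PAD2KO of batch 2. The collagens made up most of the lower sum, and not all markers fell. Mean Col3a1 went from 6742 to 1483 CPM in WT and from 5644 to 1013 CPM in PAD2KO. Over all genes tested, 10.6% fell and 11.7% rose in WT, and 9.13% fell and 9.52% rose in PAD2KO. Of the 8 tested markers, 4 fell (Col1a1, Col1a2, Col3a1 and Tcf21) and 0 rose in WT, and 5 fell (those and Dcn) and 2 rose in PAD2KO. The 2 were Vim, the intermediate filament vimentin, by 0.50 (SE 0.12, adjusted p = 0.00391), and Thy1, a surface glycoprotein, by 0.88 (SE 0.18, adjusted p = 7.70e-04); Pdgfra, a growth factor receptor, gave 0.20 in WT and 0.04 in PAD2KO. The 9 smooth muscle and pericyte markers summed to 7083 to 7529 and 5327 to 8135 CPM in batch 1, WT first and PAD2KO second, and to 1819.7 to 2165 and 4239 to 5348 CPM in batch 2. The 4 mesothelial markers summed to 196 to 341 and 85.9 to 243 CPM in batch 1 and to 44.0 to 79.7 and 40.5 to 84.6 CPM in batch 2. The 8 immune markers summed to 234 CPM in WT 7 and to at most 76.4 CPM in every other library, and 4 erythroid markers stayed at or under 4.83 CPM. The part of these shifts in the members' differences was not tested, and in bulk samples fewer cells of a type and less RNA per cell cannot be told apart. Leaving out WT 7, or any other library, left 18 to 20 members called in WT and 13 to 17 in PAD2KO between batches.

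On TPM, which allows levels of different genes to be compared, the members spanned a wide range. Mean TPM over the 11 libraries was highest for Gapdh (2019.95), Ldha (1677), Pkm (1579.7), Aldoa (1224), Mif (1212) and Eno1 (1164). Adm (748), Tpi1 (634), Pgam1 (494), Pgk1 (406), Gpi1 (326) and Hif1a (193) followed, and the lowest tested member was Egln1 (3.85). The order was not the same in every group. Mean TPM of Pkm was above that of Ldha in WT of batch 2 (2216 against 2142) and below it in the other 3 groups, and mean TPM of Mif was above that of Eno1 in WT of batch 2 (1794 against 1415) and below it in the other 3 groups. From Gapdh to Eno1, neighbours in this order overlapped in their ranges over libraries; Gapdh, for instance, ran from 1169.6 to 2652 TPM and Ldha from 1122 to 2334 TPM. Within families, Aldoa held over 99% of aldolase TPM in every group, and Slc2a1 held 86.2% to 97.2% of the TPM of 4 glucose carrier genes as a group mean.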

How the data were processed

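RNA of 11 libraries of sorted primary lung fibroblasts was sequenced with a SMARTer kit, per the labels' protocols. The table of estimated counts per gene and library was deposited by the authors, beside their TPM values and effective gene lengths per library; the tools named in the submitters' processing notes are Salmon 1.3.2, fastp and DESeq2 1.46.0, with the build GRCm39, while their order, the annotation and the strand setting are not given in the sources used here. Here the estimated counts were rounded to whole numbers and summed by symbol. Of 56065 entries, 23133 had no symbol; they held 3.80% to 6.40% of counts and were left out.

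Genes were filtered by filterByExpr on genotype, normalised by TMM and tested by the robust quasi-likelihood method of edgeR 4.0.16 (R 4.3.3) with 4 group means; p-values were adjusted over all 9932 genes (Benjamini-Hochberg) and called under 0.05. The test over both batches had terms for batch and genotype. Each standard error (SE) was derived from the edgeR test, as the absolute log2 difference divided by the square root of its F statistic. The common biological coefficient of variation was 0.115, and named counts of 962633 to 1421243 per library set the precision. Replicate pairs differed beyond counting noise (chi-square per degree of freedom 1.51 to 3.18, smallest for WT 5 and WT 6), so each library counted once. Alternatives were DESeq2 1.42.0, other size factors and filters, length offsets, fewer libraries, a replicate block, summed gene copies and removal of Rn18s.

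Members were matched by symbol alone, but the members and lists were chosen with earlier results of these data known. All 34 members are named; library values are given for members called in any of 6 comparisons and, in a role group without a call, for the member with the smallest p. Of other lists, at most the 3 called genes with the smallest p in a comparison are named. In simulated counts with 1 spread for all genes, the genotype test in batch 2 recovered 6.06% of log2 differences of 0.5. It recovered 53.3% of those of 1 and 88.2% of those of 2. The share of real differences that the tests miss in the libraries themselves was not tested, so a gene that was not called may still differ. Promoter windows were read from a RefSeq table, and figures were drawn with matplotlib 3.10.9.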

Additional observations from a re-analysis of the deposited data

Results flagged for a closer look

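For 5 genes the PAD2KO against WT difference of batch 2 differed from that of batch 1 by edgeR's test of the difference itself, with p adjusted over 9932 genes. Ldhb, the lactate dehydrogenase subunit of oxidative tissues, stood at -1.21 (SE 0.21, adjusted p = 0.00136). Eno2 stood at -1.84 (SE 0.42, adjusted p = 0.0181). For both, the call was lost without PAD2KO 7 (adjusted p = 0.0513 and 0.235). Bnip3 stood at -0.96 (SE 0.23, adjusted p = 0.0251), Fam162a at -0.89 (SE 0.23, adjusted p = 0.0427) and Slc16a3 at -1.10 (SE 0.28, adjusted p = 0.0429); each of these 3 calls was lost in 11 or 12 of 19 alternatives. In batch 1 the PAD2KO estimates of Bnip3, Fam162a and Slc16a3 were 0.70, 0.55 and 0.98, and in batch 2 they were -0.26, -0.34 and -0.13. The level of Fam162a was 40.2, 54.7 and 65.2 CPM in WT and 72.3, 92.9 and 69.0 CPM in PAD2KO of batch 1, and 156, 189.8 and 203 CPM in WT and 140.4 and 148 CPM in PAD2KO of batch 2, so every batch 2 library lay above every batch 1 library, and in batch 1 PAD2KO lay above WT.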

How the results depend on the processing

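Of 39 member calls, 26 held under every alternative run and 13 were lost in some; none reversed. Members called between batches stayed at 17 to 20 in WT and 10 to 17 in PAD2KO. For PAD2KO against WT in batch 1, 0 members became 2 with no filter on low counts and 1 with length offsets, and leaving out single libraries gave 0 to 1. In batch 2, 2 became 0 with length offsets and 1 with only the libraries of the 2 groups compared, and leaving out single libraries gave 0 to 3. The difference of genotype differences went from 3 to 1 with DESeq2 and 1 with length offsets, and leaving out single libraries gave 0 to 3. Over both batches, 0 became 2 with no filter on low counts. The cause was not tested. Leaving out PAD2KO 6 or PAD2KO 7 leaves 1 library in that group, which is then assumed to vary like the other groups. Libraries of the same number were not treated as pairs (correlations of their deviations from group means 0.0487, 0.0104, 0.0297 and 0.00152, over genes). With groups this small such correlations cannot exclude a shared origin, and the deviations of PAD2KO 6 and PAD2KO 7 mirror each other. With a replicate block the counts were 0 in batch 1, 2 in batch 2, 0 over both batches and 1 for the difference of differences. Over all genes, calls with length offsets against those as reported were 2 and 13 in batch 1, 89 and 309 in batch 2, 2 and 19 over both batches, 1356 and 2212 between batches in WT, 865 and 1853 in PAD2KO, and 26 and 161 for the difference. With no filter, over 20570 genes, they were 58, 529, 142 and 323 in batch 1, batch 2, both batches and the difference. DESeq2 called 1219 between batches in PAD2KO and 30 over both batches; fits on the 2 groups called 22 in batch 1, and the block 8 in batch 1 and 4 over both. Depth limits the 5 untested members, none above 13 counts in any library.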

Other observations

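Of 10 tested genes of the integrated stress response, which raises amino acid supply through the factor ATF4, 5 rose in WT and the same number in PAD2KO (median log2 differences 0.48 and 0.56), where 11.7% and 9.52% of all genes were called higher. Slc7a11, the cystine carrier, rose by 2.64 (SE 0.39, adjusted p = 9.05e-06) in WT and 1.51 (SE 0.50, adjusted p = 0.0356) in PAD2KO, and Psat1, an enzyme of serine synthesis, by 0.90 (SE 0.13, adjusted p = 5.82e-06) and 1.02 (SE 0.14, adjusted p = 4.88e-06). Phgdh, the entry enzyme of serine synthesis, rose by 0.69 (SE 0.14, adjusted p = 7.13e-04) and 0.80 (SE 0.15, adjusted p = 5.88e-04). Of 6 tested glucocorticoid-induced genes, 2 rose and 0 fell in each genotype, and the medians of the 6, -0.07 in WT and 0.0034 in PAD2KO, lay close to those of all genes (-0.0040 and -0.017). The 2 were Sgk1, a kinase of ion transport, which rose by 1.11 (SE 0.11, adjusted p = 7.86e-09) and 0.73 (SE 0.12, adjusted p = 5.17e-05), and Nfkbia, an inhibitor of NF-kappaB that is also induced by NF-kappaB, by 1.85 (SE 0.22, adjusted p = 5.01e-05) and 1.00 (SE 0.25, adjusted p = 0.0139). Between genotypes in batch 2, Dusp1, a MAP kinase phosphatase, was higher in PAD2KO by 0.48 (SE 0.12, adjusted p = 0.0212), where 1.4% of all genes were called higher.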
